A study of Arabidopsis thaliana with 6 samples.

Results

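The acidic stalk P1 and P2 genes of Arabidopsis thaliana were followed in phloem exudate and in phloem tissue. The members were the 4 P1 loci (AT1G01100, AT4G00810, AT5G47700 and AT5G24510) and the 5 P2 loci (AT2G27720, AT2G27710, AT3G28500, AT3G44590 and AT5G40040), taken by locus under a rule that uses no measured value. All 9 had 1 probe set of their own, out of 13355 genes with such a probe set on the array. The tested samples were 3 of phloem exudate (sap that leaves cut sieve tubes into EDTA, a calcium chelator) and the samples set against them were 3 of phloem tissue freed by laser microdissection and pressure catapulting (LMPC). Growth was in short days (8 h of light) and ended at flowering. Ecotype, genotype and plant age are not stated in what was used here, and no treatment is listed. Each RNA sample was hybridised to 1 Affymetrix ATH1 array. The exudate RNA was amplified linearly over 2 cycles and the LMPC RNA with a kit run with 10 PCR cycles, so sample type and amplification kit cannot be told apart.

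The stalk is a flexible arm on the large subunit of the cytosolic ribosome. P0 anchors it to the ribosomal RNA beside the L12 protein (uL11), and heterodimers of P1 and P2 hang from P0. P1 and P2 end in the same acidic tail, which recruits the elongation factors and other GTPases of translation. Plants also carry P3, a stalk protein that other kingdoms lack. Mature sieve elements have lost their nucleus and most of their ribosomes, while companion cells keep theirs.

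The values below are MAS5 signals, 1 linear intensity per probe set. The trimmed mean of an array (2% left out at each end) lay between 17.8 and 27.98 in exudate and between 22.7 and 28.6 in LMPC phloem. Exudate array 3 was the brightest exudate array. Of the phloem markers, 4 of 15 had a probe set of their own, and SUC2 and APL did not. Their summed signal was 112.9 to 184 in exudate and 212 to 446 in LMPC phloem, with none at 0. CLE41 (-2.02) and SWEET11 (-1.17) were lower and CLE44 (+1.01) higher in exudate, as log2 differences, and OPS was too dim to test. The mesophyll markers measured, 3 of 6 (RCA, LHCB4.1 and LHCB4.2), summed to 924 to 1805 in exudate and 183 to 745 in LMPC phloem, again with none at 0, and all 3 were called higher (+1.01, +1.33 and +2.37). For RCA (limma adjusted p = 0.0482) and LHCB4.1 (0.027) the groups overlapped, and for LHCB4.2 they did not. The part of the phloem and mesophyll markers in the differences below was not tested. The 3' to 5' signal ratio of the GAPDH control was 2.15 to 2.47 in exudate and 6.02 to 43.5 in LMPC phloem. The groups overlapped for actin (8.99 to 18.8 in exudate, 17.6 to 32.8 in LMPC phloem) and for ubiquitin (4.04 to 7.05 in exudate, 5.42 to 8.66 in LMPC phloem). In such bulk samples, fewer cells of a type and less RNA per cell cannot be told apart.

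One P1 gene was higher in exudate, 1 P2 gene was lower, and the other members gave no call. The P1 gene AT5G47700 was 4.18-fold higher in exudate and the P2 gene AT3G28500 5.90-fold lower, both on the scale of log2(signal + 16). The other 5 tested members differed by between -0.16 and +1.03 on the log2 scale. The test took in probe sets whose signal passed the 40th percentile of an array in 3 or more of the 6 arrays, as 7 of the 9 members did, and the call was a limma adjusted p under 0.05. Across all 15320 probe sets tested, 8.51% were called higher and 16.6% lower in exudate. The 1 higher and 1 lower call among 7 tested members stand close to those shares. The higher count depended on the processing: it was 0 without the filter on dim probe sets, where AT5G47700 missed the threshold (adjusted p = 0.0552), and 5 after spike-in scaling, which moved the median of all tested probe sets to 0.42, against -0.27 as deposited.

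**Figure D1:**
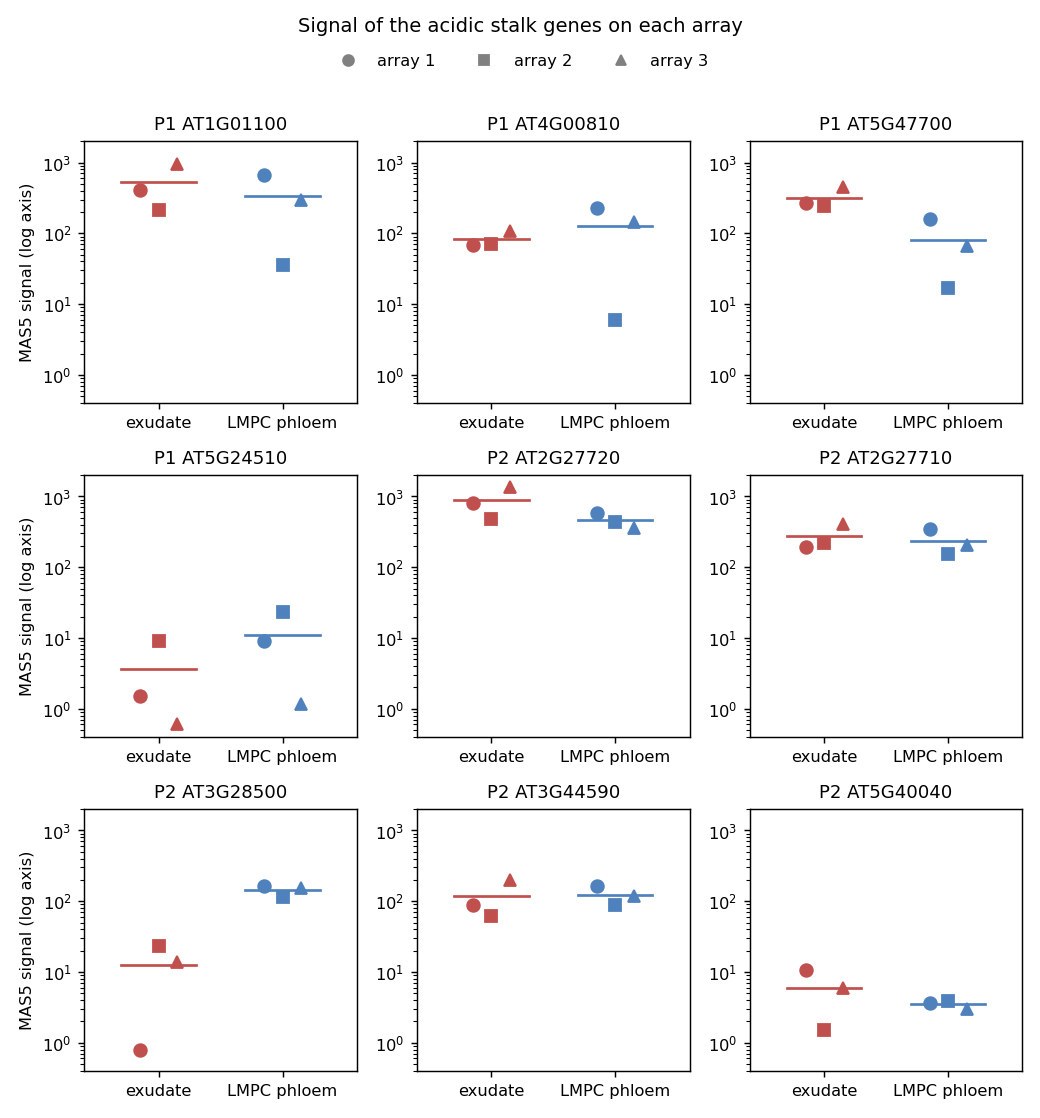
MAS5 signal (log axis) of the 9 acidic stalk genes on the 3 exudate arrays (left of each panel) and the 3 LMPC phloem arrays (right), with marker shape giving the array number and a line the group mean. AT5G47700 lies higher and AT3G28500 lower in exudate without overlap, and the P1 genes AT1G01100, AT4G00810 and AT5G47700 are lowest on LMPC array 2. Among the LMPC arrays, the P2 genes AT2G27710, AT3G28500 and AT3G44590 are also lowest on array 2, by less.

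Among the P1 genes, whose products pair with P2 on the stalk, AT5G47700 had signals of 264.0, 243.9 and 449.1 on exudate arrays 1, 2 and 3, against 157, 16.8 and 65.3 on LMPC arrays 1, 2 and 3. Every exudate array lay above every LMPC array. Such a lack of overlap was found for 12.1% of the tested probe sets in this direction and for 27.8% in the other. Its mean was 319 ± 113 in exudate and 79.9 ± 71.4 in LMPC phloem (SD, n = 3 each). The log2 difference, exudate minus LMPC phloem, was +2.06 (SE 0.45, 95% interval 1.12 to 3.01, limma adjusted p = 0.00246). Without LMPC array 2 it was +1.45 (adjusted p = 0.0134).

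AT1G01100, a further P1 gene, had 409.4, 210.1 and 952.3 in exudate, against 669, 35.7 and 293 in LMPC phloem. The groups overlapped, and only LMPC array 2 lay below all exudate arrays. The log2 difference was +1.03 (SE 0.65, 95% interval -0.32 to 2.39, limma adjusted p = 0.257). Without LMPC array 2 it was -0.02 (adjusted p = 0.983), and without LMPC array 1 it was +1.84 and was called (adjusted p = 0.0158). AT4G00810 had 67.7, 71.5 and 106.6 in exudate, against 229, 5.90 and 142 in LMPC phloem. LMPC arrays 1 and 3 lay above every exudate array and LMPC array 2 below them all. Its difference was +0.03 (SE 0.58, 95% interval -1.18 to 1.24, adjusted p = 0.98) with all arrays and -1.03 (adjusted p = 0.0584) without LMPC array 2. The values of both genes in LMPC phloem thus rest on which arrays are taken.

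The remaining P1 locus, AT5G24510, was dim throughout, with 1.5, 9.0 and 0.6 in exudate against 9.10, 23.05 and 1.19 in LMPC phloem. It passed the filter's percentile on 2 arrays and was not tested in the fit. Its log2 difference of -0.40 had an exact permutation p of 0.4 (two-sided, 3 against 3 arrays, for which 0.1 is the smallest p).

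Among the P2 genes, the partners of P1 in the heterodimer, AT3G28500 had 0.8, 23.4 and 13.7 in exudate, against 166, 115 and 154 in LMPC phloem. Every exudate array lay far below every LMPC array, and exudate array 1 was the lowest. Its mean was 12.6 ± 11.3 in exudate and 145 ± 26.7 in LMPC phloem. The log2 difference was -2.56 (SE 0.35, 95% interval -3.28 to -1.84, limma adjusted p = 2.26e-05). The size of this difference depends on the pseudocount, because the exudate signals lay near or under 16. With a pseudocount of 1 it was -4.06 (limma adjusted p = 0.0108), and with 64 it was -1.45 (0.000783). The gene lay above the filter's percentile on 5 of the 6 arrays, among them 2 of exudate. Its percentile among all probe sets of the array was 10.4, 76.5 and 57.0 in exudate, against 95.9, 94.6 and 96.9 in LMPC phloem.

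AT2G27720 and AT2G27710 are P2 genes that neighbour each other in the RefSeq gene table, with no annotated gene between them. AT2G27720 had 801.6, 485.3 and 1376.5 in exudate, against 592, 435 and 359 in LMPC phloem. Exudate arrays 1 and 3 lay above all LMPC arrays and exudate array 2 lay within their range. The log2 difference was +0.82 (SE 0.37, 95% interval 0.06 to 1.59, limma adjusted p = 0.106). It was called after quantile normalization (+1.03, adjusted p = 0.0119), after median centring (+1.12, 0.0181), after spike-in scaling (+2.15, 1.74e-05) and without exudate array 2 (+1.19, 0.0312).

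AT2G27710 had 191.9, 219.6 and 408.8 in exudate, against 345, 152 and 208 in LMPC phloem. The groups overlapped, with a log2 difference of +0.21 (95% interval -0.55 to 0.96, adjusted p = 0.709). AT3G44590 had 89.1, 62.5 and 202.0 in exudate, against 164, 88.3 and 117 in LMPC phloem. Its groups overlapped too, with a difference of -0.16 (95% interval -0.94 to 0.62, adjusted p = 0.787). The sign of both changed with the scaling: AT2G27710 was -0.04 after centring on ribosomal protein genes, and AT3G44590 was +0.13 after median centring. After spike-in scaling both were called higher, AT2G27710 at +1.48 (adjusted p = 0.00211) and AT3G44590 at +1.01 (adjusted p = 0.0236). The fifth P2 locus, AT5G40040, was dim, with 10.6, 1.5 and 6.0 in exudate against 3.67, 3.87 and 2.95 in LMPC phloem. It passed the filter's percentile on 1 array, and its difference of +0.16 had an exact permutation p of 0.5.

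The members' log2 differences were then set against each other within each array, which cancels any scaling of the signals by a common factor except for the pseudocount. Of the 21 pairs of tested members, 11 had per-array differences that did not overlap between exudate and LMPC phloem. Over all pairs of the 8633 tested genes the share was 37.6%. The 21 pairs share genes, so their count is a description of the members and not a test. Each of the 11 reached p = 0.1, the smallest that an exact two-sided permutation of 3 against 3 arrays can give, and the smallest p adjusted over the 21 pairs was 0.191, so no pair could pass 0.05. All 6 pairs that hold AT3G28500 were among the 11. The 5 others held AT5G47700 or AT2G27720.

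The pair with the greatest separation was AT5G47700 and AT3G28500. The first minus the second was 3.58 ± 0.75 log2 units in exudate and -1.04 ± 0.96 in LMPC phloem (SD, n = 3 each), a shift of +4.62 (exact p = 0.1). Within P1, AT4G00810 minus AT5G47700 was -1.75 ± 0.18 in exudate and 0.29 ± 0.79 in LMPC phloem, a shift of -2.04 without overlap (exact p = 0.1). The neighbours AT2G27720 and AT2G27710 shifted against each other by 0.62 with overlap (exact p = 0.2).

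A second pattern lay within the LMPC phloem arrays. The signals of 3 P1 genes were lowest on array 2, while the 4 tested P2 genes differed far less between that array and the other 2. The dim P1 gene AT5G24510, which was not tested, was instead highest on array 2 (23.05, against 9.10 and 1.19). Being lowest on array 2 was not particular to P1, as the P2 genes AT2G27710, AT3G28500 and AT3G44590 were lowest there among the LMPC arrays too. To describe this, the log2(signal + 16) on LMPC array 2 was set against the lower of LMPC arrays 1 and 3, for the 4168 probe sets above the 75th percentile on both of those arrays. AT4G00810 stood at -2.85 and AT1G01100 at -2.58, which were ranks 1 and 2 from the low end of the 4168. Only 4 of the 4168, or 0.096%, were at least 4-fold lower on this scale, and both P1 genes were among the 4. The others were AT1G78020, with 32.9 on LMPC array 2 against 769 and 221 on arrays 1 and 3, and a probe set with no gene named here. The comparison was chosen after these values were seen and carries no test.

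**Figure D2:**
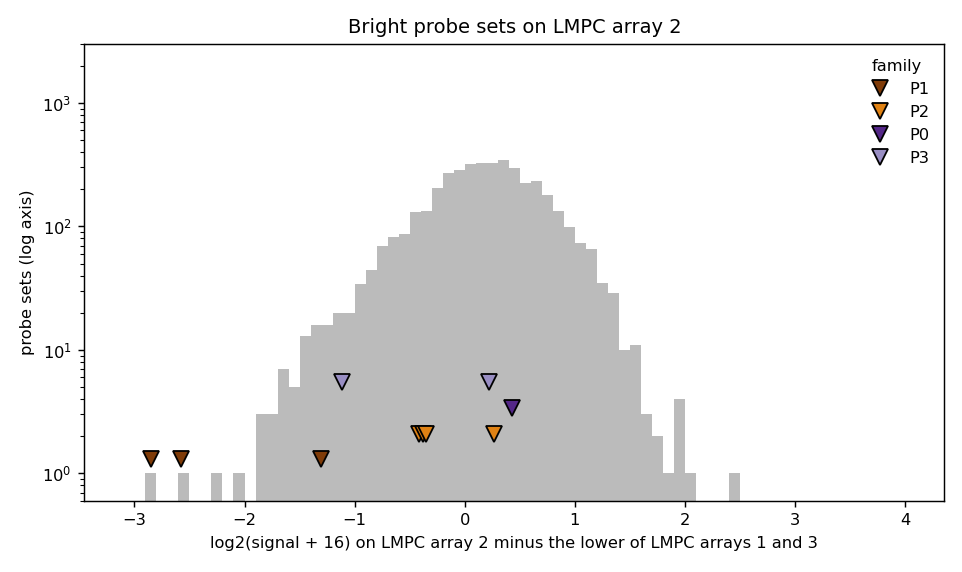
Histogram (log axis) of log2(signal + 16) on LMPC array 2 minus the lower of LMPC arrays 1 and 3, for the 4168 probe sets above the 75th percentile on both of those arrays; triangles mark P1, P2, P0 and P3 genes, and their height only separates the families. The P1 genes AT4G00810 (-2.85) and AT1G01100 (-2.58) lie at the lower end, and the P2 genes between -0.41 and +0.26.

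The remaining tested P1 gene, AT5G47700, stood at -1.31, a level that 1.18% of the 4168 probe sets reached or passed. The P2 genes stood at +0.26 for AT2G27720, -0.41 for AT2G27710, -0.38 for AT3G28500 and -0.35 for AT3G44590. The last 3 levels were reached or passed by 12.8%, 13.8% and 14.7% of the 4168 probe sets. As ratios of the signals themselves, the lower of LMPC arrays 1 and 3 was 24.1 times array 2 for AT4G00810, 8.203 times for AT1G01100 and 3.88 times for AT5G47700. Of the P3 genes, AT5G57290 stood at -1.12 and AT4G25890 at +0.22, and the bright P0 gene AT3G09200 at +0.43.

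Array 2 was not dim as a whole, with a trimmed mean of 26.5 against 28.6 and 22.7 on LMPC arrays 1 and 3. Its 3' to 5' ratio was 19.9 for actin, 6.02 for GAPDH and 8.66 for ubiquitin, against 17.6 to 32.8, 7.39 to 43.5 and 5.42 to 6.27 on the other LMPC arrays. Among 99 cytosolic ribosomal protein genes, P1, P2, P0 and P3 left out, that were bright on LMPC arrays 1 and 3, none was at least 4-fold and 2 were at least 2-fold lower on array 2. These were AT3G56340 of the S26 family (-1.44) and AT5G52650 of the S10 family (-1.09). Over all 4168 bright probe sets, 0.096% were at least 4-fold and 2.57% at least 2-fold lower on array 2. The ribosomal protein counts are thus near the shares of all bright probe sets. The same comparison on each of the other 5 arrays found no member at least 2-fold lower than on both arrays of its group. It covered 6 members on each exudate array and 5 on LMPC arrays 1 and 3. On these 2 LMPC arrays it could not show a drop of the P1 genes, because array 2 was part of the reference. AT4G00810 and AT5G47700 were under the brightness cut on array 2 and left out, and AT1G01100 was held against its own low signal there. Whether the array or the tissue piece behind it accounts for the low P1 signals was not tested.

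The rest of the stalk and its base showed 2 higher and 0 lower calls among 7 tested of 8 listed genes. The median log2 difference of these 7 was +0.21, beside -0.32 for all 8633 tested genes. Calls over those genes came to 6.23% higher and 17.5% lower. AT3G09200, a P0 gene, had 604.3, 595.8 and 1244.5 in exudate, against 267, 293 and 214 in LMPC phloem. The groups did not overlap, and the difference was +1.52 (SE 0.34, adjusted p = 0.0029). Its paralog AT3G11250 had a difference of -0.35 (adjusted p = 0.472), which turned to +0.50 after spike-in scaling, and AT2G40010, the third P0 locus, was dim with at most 5.21 on any array.

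AT2G37190, one of the L12 genes that form the stalk base, had 361.5, 468.7 and 613.6 in exudate, against 89.9, 76.4 and 81.9 in LMPC phloem. The groups lay far apart, with an SD of 127 in exudate and of 6.82 in LMPC phloem. The difference was +2.30 (SE 0.31, limma adjusted p = 2.41e-05). Its paralogs AT3G53430 and AT5G60670 differed by +0.40 (adjusted p = 0.448) and -0.12 (0.864), the last with a sign that turned after median centring (+0.17). After spike-in scaling both were called higher, AT3G53430 at +1.68 (adjusted p = 0.000387) and AT5G60670 at +1.06 (adjusted p = 0.0412). The P3 genes AT4G25890 and AT5G57290 differed by +0.19 and +0.21 (adjusted p = 0.737 and 0.732). After spike-in scaling both were called higher (+1.41 and +1.45), and after centring on ribosomal protein genes both were slightly below 0 (-0.05 and -0.03).

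**Figure D3:**
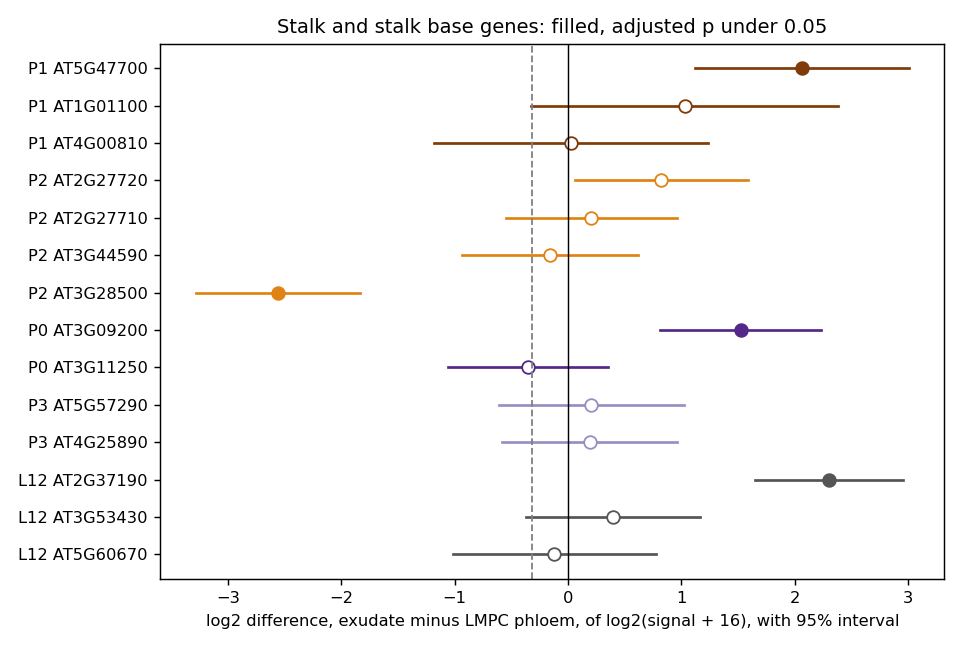
Log2 difference of log2(signal + 16), exudate minus LMPC phloem, with its 95% interval, for the 14 tested genes of the P1, P2, P0, P3 and L12 families; filled points passed a limma adjusted p under 0.05, and the dashed line is the median of all tested genes (-0.32). P1, P0 and L12 each hold 1 filled gene to the right, and P2 holds 1 to the left.

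Of the 5 pairs of paralogs in P0, P3 and L12, 3 did not overlap between exudate and LMPC phloem in their per-array differences. Over all pairs of tested genes the share was 37.6%. AT3G09200 minus AT3G11250 was 4.25 ± 0.03 log2 units in exudate and 2.37 ± 0.18 in LMPC phloem, a shift of +1.88 without overlap (exact p = 0.1). AT2G37190 shifted by +1.91 against AT3G53430 and by +2.42 against AT5G60670, again without overlap (exact p = 0.1 each). The smallest p adjusted over these 5 pairs of P0, P3 and L12 genes was 0.167.

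Of the factors that bind the stalk, 4 of 19 listed genes had a probe set of their own and were tested. Beside 6.23% higher and 17.5% lower calls over all 8633 tested genes, these 4 gave 1 higher and 0 lower. Their median was +0.76, against -0.32 for all tested genes. The called gene was AT5G12110, an eEF1B subunit gene of the exchange factor that reloads eEF1A with GTP. It had 25.9, 21.8 and 44.6 in exudate, against 15.2, 1.61 and 2.15 in LMPC phloem, a difference of +1.09 (adjusted p = 0.0222). It passed the filter on the 3 exudate arrays and LMPC array 1. Its call was lost in 6 of 14 refits, namely without the filter (adjusted p = 0.0527), with a pseudocount of 64 (+0.43, 0.0626), after ribosomal protein centring (0.0984), without LMPC array 2 (0.0886) or 3 (0.0804), and without exudate array 3 (0.0735). The loci listed for eEF2, eEF1A and eRF1 had no probe set of their own and were not analysed here. Of the subunits of casein kinase 2, the kinase that phosphorylates the tails of P proteins, 1 of 8 was measured. AT2G23070, listed by hand as an alpha subunit gene and held to encode a chloroplast form, had 172.4, 120.6 and 382.9 in exudate. In LMPC phloem it had 47.5, 68.4 and 41.03 (+1.69, limma adjusted p = 0.00254). Whether its product acts on the P proteins of the cytosol was not tested.

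The other cytosolic ribosomal proteins moved in both directions. Of 67 tested large subunit genes, 14 were higher and 7 lower in exudate, with a median difference of +0.17. Of 45 tested small subunit genes, 7 were higher and 7 lower, with a median of -0.05. As shares these were 20.9% higher and 10.4% lower for the large subunit, and 15.6% each way for the small subunit. Among all 8633 tested genes, 6.23% were called higher and 17.5% lower, with a median of -0.32. The L12 genes are counted in the large subunit list as well. AT4G34670 of the S3a family had a mean of 559 ± 184 in exudate and 89.0 ± 10.6 in LMPC phloem (+2.41, limma adjusted p = 2.01e-05). AT2G41840 of the S2 family had 783.6 ± 274 in exudate and 135 ± 21.9 in LMPC phloem (+2.35, adjusted p = 3.59e-05). Together with the L12 gene AT2G37190 these had the smallest adjusted p among the 112 tested genes of these subunit lists, which leave out P0, P1, P2 and P3.

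The spread among paralogs was wide in P1 and, through AT3G28500, in P2. The log2 differences of the 4 tested P2 genes spanned 3.38 log2 units, and those of the 3 tested P1 genes 2.04. Without AT3G28500 (-2.56), the tested P2 genes lay between -0.16 (AT3G44590) and +0.82 (AT2G27720), a span of 0.98. Of 41 ribosomal protein families with at least 2 tested genes, P2 had rank 2 and P1 rank 4 by this span, and the median span of the 39 other families was 0.98. Families with more tested genes can span more, and no test was made. S25, with 4 tested genes and a span of 3.82, ranked above P2 and was the family with calls in both directions.

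**Figure D4:**
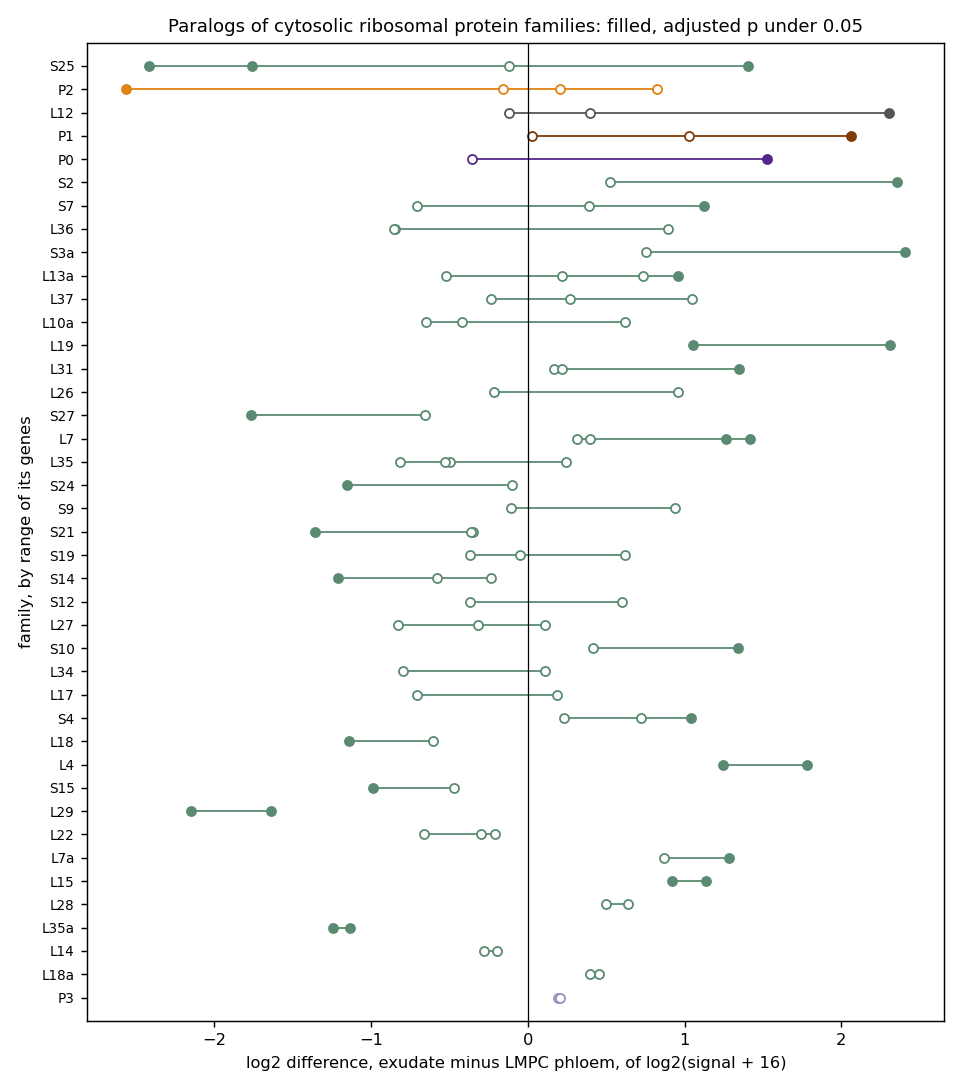
Log2 difference of log2(signal + 16), exudate minus LMPC phloem, of each tested gene in the 41 cytosolic ribosomal protein families with at least 2 tested genes, sorted by the span within the family; filled points passed a limma adjusted p under 0.05. P2 (span 3.38), L12, P1 (span 2.04) and P0 follow S25 at the top.

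The genes most like each member in pattern were found by the root mean square (RMS) difference of their log2(signal + 16) values over the 6 arrays, each gene centred on its own mean, among 8632 other tested genes. AT4G00810 was closest to AT1G78020 (RMS difference 0.38 log2 units), AT1G28395 (0.48) and AT3G15780 (0.51). AT3G15780 was also the closest to AT1G01100 (0.59), followed by the S26 gene AT3G56340 (0.61) and AT5G64400 (0.68). Among the genes compared with AT1G01100, its fellow P1 genes AT4G00810 (0.70) and AT5G47700 (0.77) had ranks 5 and 9 of 8632. From AT4G00810, AT1G01100 had rank 33, and from AT5G47700 it had rank 162. AT4G00810 and AT5G47700 were 1.12 apart, at rank 3126 from AT4G00810 and 1314 from AT5G47700. A rank counts the nearer genes and is not a distance: AT2G27710 was 0.46 from AT2G27720, yet at rank 825. AT3G15780 was likewise lowest on LMPC array 2, with 48.1, 27.7 and 79.1 in exudate, against 119, 4.04 and 34.6 in LMPC phloem.

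AT5G47700 was closest to AT5G52750 (0.42), nad1 of the mitochondrial genome (0.45) and SGT1A (AT4G23570, 0.49). AT3G28500 was closest to AT3G12590 (0.19), AT5G09960 (0.25) and AT2G43800 (0.28), all with low exudate and high LMPC signals. AT2G27720 was closest to AT3G04000 (0.07), followed by the L36 gene AT5G02450 (0.10) and AT2G03310 (0.12). AT2G27710 was closest to AT4G17010 (0.12), AT5G52780 (0.13) and AT2G18220 (0.14). AT3G44590 was closest to AT3G53960, SAMBA (AT1G32310) and AT5G44450, at 0.12, 0.12 and 0.13. Several of these matches were dim. AT3G04000 had signals of 2.75 to 51.5 and AT2G03310 of 6.14 to 80.1, against 359 to 1376.5 for AT2G27720. The L36 gene AT5G02450 was brighter, at 137 to 513. The genes closest to AT2G27710 lay within 1.81 to 38.9, and AT3G53960 and AT5G44450 within 0.6 to 29. The pseudocount shrinks the log2 differences of dim signals, and its part in these matches was not tested. The closest members of the set were the P2 genes AT2G27710 and AT3G44590 (0.29), and AT3G28500 was at least 1.34 from every other tested member.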

How the data were processed

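Per the labels, poly-A RNA of 3 exudate and 3 LMPC phloem samples was amplified and hybridised to ATH1 arrays, and per the submitters' processing notes the deposited intensity values are MAS5 signals. For the scaling target, background settings and build, the sources used here give nothing. Of 22810 probe sets, 64 were controls. A gene was named for the 13513 that the platform annotation ties to 1 gene, and not for the 503 tied to several. Names and neighbours came from RefSeq (assembly TAIR10.1), and 13436 of the 13513 matched. The 9 member probe sets are of the plain type designed for 1 transcript, but cross-hybridisation between close paralogs was not tested.

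Groups came from the sample titles. Limma 3.58.1 (R 4.3.3) was fitted to log2(signal + 16), without covariates or renormalizing, for the 15320 probe sets that passed the 40th percentile in 3 or more of 6 arrays. The p-values were adjusted by Benjamini-Hochberg over all of them. A gene was measured by its brightest single-gene probe set. The fit was also run on simulated arrays with independent normal noise. Those held no array or kit effects, so that run does not bear on such effects. Alternatives were pseudocounts of 1 and 64, no filter, quantile normalization, median centring, spike-in scaling, centring on ribosomal protein genes, leaving out each array, a replicate block and percentile ranks. The extract protocol of the LMPC samples speaks of exudates, against their titles, and was not used for grouping. Whether the samples came from separate plants is not stated, and the spread behind each p-value may be technical. Precision is limited by having 3 arrays a group.

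The rule that picks the members names loci and uses no measured value, but this gene family and the lists were chosen with earlier results of these data known. The text names every P1, P2, P0, P3 and L12 locus that was measured, the called genes of the factor and kinase lists, the 3 ribosomal protein genes with the smallest adjusted p and the 3 genes most like each tested member. The ribosomal protein list was to come from gene descriptions. The reference table holds none, so 220 loci were listed by hand from general knowledge, of which 119 had a probe set of their own and 112 were tested. The marker lists of xylem, epidermis and dividing cells had 1, 2 and 1 genes with a probe set of their own. The xylem gene IRX10 (-1.09) was lower, AT1G22690 of the epidermis list was higher (+1.40) and FMA (-0.59) and AUR1 (+0.44) were not called. No sequences were used here.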

Additional observations from a re-analysis of the deposited data

How the results depend on the processing

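Among the acidic stalk genes, AT3G28500 was called lower in all 14 refits and AT5G47700 higher in 13, the exception being the fit without the filter on dim probe sets (+2.06, adjusted p = 0.0552). The count of P1 and P2 genes called higher was 1 as reported, 0 without that filter, 2 after quantile normalization and after median centring, 5 after spike-in scaling (all but AT4G00810 and AT3G28500) and 1 to 2 when 1 array was left out. The counts over all probe sets were 1989 higher after quantile normalization, 2143 higher and 1458 lower after median centring, 4349 higher and 564 lower after spike-in scaling and 834 higher after ribosomal protein centring. Leaving out 1 array gave 727 (without exudate array 3) to 1120 (without LMPC array 1) higher and 1475 (without LMPC array 1) to 2567 (without exudate array 3) lower. The lower count was 1552 without exudate array 1 and 1620 without LMPC array 2, and the higher count 807 without exudate array 1. Over all tested probe sets the median difference was -0.27 as deposited, 0.02 after median centring, -0.04 after quantile normalization, 0.42 after spike-in scaling and -0.51 after ribosomal protein centring. Calls higher in exudate made up 33.8% of all calls as deposited, 51.1% after quantile normalization, 59.5% after median centring, 88.5% after spike-in scaling and 19.4% after ribosomal protein centring. Of P0, P3 and L12 genes, 1 was called with a pseudocount of 1, where AT3G09200 missed the threshold (+1.58, adjusted p = 0.0672), and 6 after spike-in scaling.

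Signs changed for genes that were not called. AT4G00810 was -0.16 with a pseudocount of 64 and -0.21 after ribosomal protein centring, where AT2G27710 (-0.0356), AT4G25890 (-0.0502) and AT5G57290 (-0.0348) also turned. After median centring AT3G44590 was 0.13 and AT5G60670 0.17. After spike-in scaling AT3G44590 was 1.01, AT5G60670 1.06 and AT3G11250 0.50. With 1 array left out the ranges were -0.0209 to 1.84 for AT1G01100, -1.03 to 0.71 for AT4G00810, -0.11 to 0.51 for AT2G27710, -0.58 to 0.16 for AT3G44590, -0.27 to 0.48 for AT4G25890, -0.25 to 0.56 for AT5G57290 and -0.57 to 0.48 for AT5G60670. The pairs of members without overlap numbered 11 to 17 with 1 array left out, where fewer arrays make overlap rarer in every case. The most, 17, came without LMPC array 2. There were 10 with a pseudocount of 64, 11 with a pseudocount of 1 and 12 after quantile normalization. With a pseudocount of 64, chosen after seeing the data for this comparison, 0 members were at least 4-fold lower on LMPC array 2, and the larger pseudocount itself shrinks such folds. Why the most pairs came without LMPC array 2, and the causes of the other changes, were not tested.

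The replicate numbers did not pair the arrays: same-numbered arrays had deviations from their group means that correlated at -0.00, -0.02 and -0.07, and no exudate array correlated best with its own number. With the number as a replicate block there were 1220 higher and 2207 lower calls, and no P1 or P2 call changed. Signals near the array's 40th percentile (5.90 to 6.70 in exudate, 9.11 to 10.6 in LMPC phloem) limit what can be said of AT5G24510, AT5G40040 and the exudate level of AT3G28500.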
